A study of Homo sapiens with 8 samples.

Results

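Box C/D small nucleolar RNAs (snoRNAs) of RMG1 cells were taken as the genes of biotype snoRNA whose symbol starts with SNORD and that held at least 40 counts over all 8 libraries together. This gave 82 members among 280 SNORD genes in the table of 57736 gene IDs. Of the other SNORD genes, 55 held 1 to 39 counts and 143 held none. The members were thus chosen by their total counts, and those totals are used here only as a description. RMG1 is an established line of human ovarian clear cell carcinoma. Total RNA was sequenced in 4 groups of 2 libraries: cells labelled as ARID1A knockout (CRISPR, CAPH2 unaltered), cells with an shRNA against CAPH2 (knockdown, ARID1A unaltered), cells with a control shRNA, and wild-type cells, the last 2 groups having both genes unaltered. ARID1A binds DNA as part of the chromatin remodeller SWI/SNF, and CAPH2, encoded by NCAPH2, belongs to condensin II. The labels do not say whether the knockout is 1 clone, how many shRNAs were used, or whether the paired libraries of each group are separate cultures, so the spread behind each p-value may be technical.

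Box C/D snoRNAs hold 2 short sequence boxes, C near the start and D near the end, that bind the proteins SNU13, NOP56, NOP58 and the methyltransferase fibrillarin (FBL). Most of them pair with ribosomal or spliceosomal RNA and direct the methylation of the ribose of 1 paired base. A few, U3 above all, instead take part in cutting and folding the precursor of ribosomal RNA. In human cells most are cut out of introns of host genes after splicing, whereas U3 and U13 have promoters of their own.

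The sequences of 11 members described below, among them the main U3 gene, both U14 members and 4 SNORD116 copies, are shown with the 6-letter core of box C (TGATGA) and box D (CTGA) in capitals, 5′ to 3′ as DNA. They come from GENCODE 29 transcripts on GRCh38. SNORD3A is the main U3 gene and SNORD3B-2 one of its copies, which differs from it by 1 of 217 bases. SNORD14C and SNORD14E are copies of U14, SNORD17 and SNORD99 are guides to 28S rRNA, and SNORD8 is a guide to U6 snRNA. The SNORD116 copies come from the imprinted Prader-Willi region.
SNORD3A: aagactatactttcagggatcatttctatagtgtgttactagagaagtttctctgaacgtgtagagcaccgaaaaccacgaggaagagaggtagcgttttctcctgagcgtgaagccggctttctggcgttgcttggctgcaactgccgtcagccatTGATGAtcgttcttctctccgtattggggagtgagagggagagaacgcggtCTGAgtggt
SNORD3B-2: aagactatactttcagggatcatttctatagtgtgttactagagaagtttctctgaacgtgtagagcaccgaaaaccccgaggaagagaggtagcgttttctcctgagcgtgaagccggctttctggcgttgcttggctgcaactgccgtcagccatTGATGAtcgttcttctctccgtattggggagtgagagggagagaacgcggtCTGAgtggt
SNORD14C: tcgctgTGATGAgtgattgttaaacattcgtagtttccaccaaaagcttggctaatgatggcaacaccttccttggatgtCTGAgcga
SNORD14E: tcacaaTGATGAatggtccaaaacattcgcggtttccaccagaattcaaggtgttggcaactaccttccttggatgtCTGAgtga
SNORD17: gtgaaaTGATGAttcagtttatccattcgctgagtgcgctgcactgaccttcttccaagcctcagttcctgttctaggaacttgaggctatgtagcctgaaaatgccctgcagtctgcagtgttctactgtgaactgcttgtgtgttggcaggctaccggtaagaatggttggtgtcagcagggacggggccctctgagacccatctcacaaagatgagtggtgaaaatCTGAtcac
SNORD99: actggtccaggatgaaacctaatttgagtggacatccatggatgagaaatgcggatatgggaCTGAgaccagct
SNORD8: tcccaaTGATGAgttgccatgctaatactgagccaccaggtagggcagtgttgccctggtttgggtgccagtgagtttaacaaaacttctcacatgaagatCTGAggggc
SNORD116-3: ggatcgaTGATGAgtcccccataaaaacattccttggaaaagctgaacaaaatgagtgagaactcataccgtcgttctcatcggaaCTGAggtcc
SNORD116-5: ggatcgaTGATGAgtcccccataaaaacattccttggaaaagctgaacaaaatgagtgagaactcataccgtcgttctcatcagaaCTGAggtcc
SNORD116-6: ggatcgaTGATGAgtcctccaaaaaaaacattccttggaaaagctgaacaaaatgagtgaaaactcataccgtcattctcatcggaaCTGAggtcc
SNORD116-11: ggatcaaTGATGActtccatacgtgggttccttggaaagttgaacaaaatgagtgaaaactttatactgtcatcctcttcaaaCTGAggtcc
The core of box C was found anywhere in 66 of 82 members (80.5%) and box D in 81 of 82 (98.8%), read on the strand of the RNA only. Among the SNORD genes with fewer than 40 counts the shares were 72.7% and 95.5%, and among 194 box H/ACA genes (SNORA, the other main class of snoRNA) they were 3.6% and 50%. Box D ended within the last 12 bases in 95.1% of members and in 3.1% of the box H/ACA genes. A 7-letter box C (ATGATGA or GTGATGA) starting in the first 20 bases together with box D at the end was found in 55 of 82 members (67.1%) and in 0 of 194 box H/ACA genes. In SNORD97 neither string was found, and in SNORD99 the core of box C was not, which says only that these letters are not in the annotated sequence.

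Members were 68 to 237 bases long, with a median of 91. A host gene on the same strand contained 77 of them, in 40 different hosts, with 53 lying in introns and 24 overlapping an exon of at least 1 host transcript. The remaining 5 were SNORD3A, SNORD3B-1, SNORD3B-2, SNORD3C and SNORD13. SNHG14, the long noncoding transcript of the Prader-Willi region, hosted 22 SNORD116 copies. The members just inside the limit were SNORD53 with 43 counts in all, SNORD11 with 44 and SNORD116-16 with 45. The genes just outside were SNORD105 with 38 counts, SNORD14D with 24, all of them in shRNA control library 1, and SNORD31B with 23. A filter on low counts left 78 members for testing, and SNORD53, SNORD11, SNORD33 and SNORD116-16 did not pass it.

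Libraries held 24559547 to 37378691 counts. Members took 1.56% and 1.38% of the counts in knockout libraries, 0.927% and 0.707% in knockdown libraries, 1.56% and 1.54% in shRNA control libraries, and 0.862% and 0.879% in wild-type libraries. ARID1A stood at 6.66 and 5.61 CPM (counts scaled to library size, with TMM factors) in knockout libraries and 8.8 and 12.1 CPM in wild-type libraries (log2 fold change −0.77, SE 0.16, edgeR adjusted p = 0.00274). NCAPH2 stood at 8.98 and 8.73 CPM in knockdown libraries and 24 and 25.8 CPM in shRNA control libraries (−1.49, SE 0.10, edgeR adjusted p = 1.84e-06). NCAPH2 was also lower in the knockout, at 21 and 23.9 CPM in knockout libraries and 26.8 and 30 CPM in wild-type libraries (−0.34, SE 0.09, edgeR adjusted p = 0.0144), which was not called without knockout library 1 (−0.25) or wild-type library 2 (−0.26). Epithelial and clear cell markers of the line summed to 3074 and 3082 CPM in knockout libraries and 3854 to 5446 CPM in the others. SPP1 made up most of that gap, at 826.1 and 802.1 CPM in knockout libraries and 1703 to 3241 CPM in the others. CDH1 went the other way, at 300.4 and 290.3 CPM in knockout libraries and 150.6 to 179.7 CPM in the others. Of 8 markers tested 2 rose and 4 fell in the knockout, while 16.8% of all genes tested rose and 17.8% fell. Leukocyte markers summed to 2.6 and 1.98 CPM in knockout libraries and 0.217 to 1.13 CPM in the others. Of these PTPRC stood at 2.25 and 1.98 CPM in knockout libraries and 0.0413 and 0 CPM in wild-type libraries and was called higher, CD14 was called lower, and CD3E was at 0 in all libraries. The 5 fibroblast markers summed to 1.12 and 0.992 CPM in knockout libraries and 0.284 to 0.464 CPM in the others, with LUM at 0.356 and 0.705 CPM in knockout libraries and 0 in the others, and COL1A2 at 0 in all. Endothelial markers summed to at most 0.124 CPM. The part of these markers in the knockout results was not tested.

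U3 made up most of the signal of the class. The 4 U3 rows together held 94.4% and 94.7% of all member CPM in knockout libraries, 90% and 86.5% in knockdown libraries, 92.9% and 93.4% in shRNA control libraries, and 91.3% and 92.3% in wild-type libraries. Per kilobase of annotated length, SNORD3A averaged 49104 CPM over the 8 libraries. The next was SNORD8, a guide to U6 snRNA, at 1593 CPM per kb, and after it came SNORD97, a guide to elongator methionine tRNA, at 1092 CPM per kb. SNORD99, SNORD104 and SNORD87, all guides to 28S rRNA, averaged 995, 821.1 and 750.3 CPM per kb. SNORD60, also a 28S guide, averaged 600.7 CPM per kb and the U3 copy SNORD3B-2 572.9 CPM per kb. The order differed between groups: SNORD97 stood at 982.8 and SNORD8 at 912 CPM per kb in wild-type cells, and in knockout cells SNORD87 (805.9 CPM per kb) and SNORD3B-2 (768.2 CPM per kb) stood above SNORD104 (653.1 CPM per kb) and SNORD99 (616.5 CPM per kb). At the low end SNORD15A averaged 1.53 CPM per kb. RNA was cleaned on silica columns, which are known to retain short RNA poorly, and the members differ in length, so the order of these levels is that of the libraries and not of the cells.

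**Figure D1:**
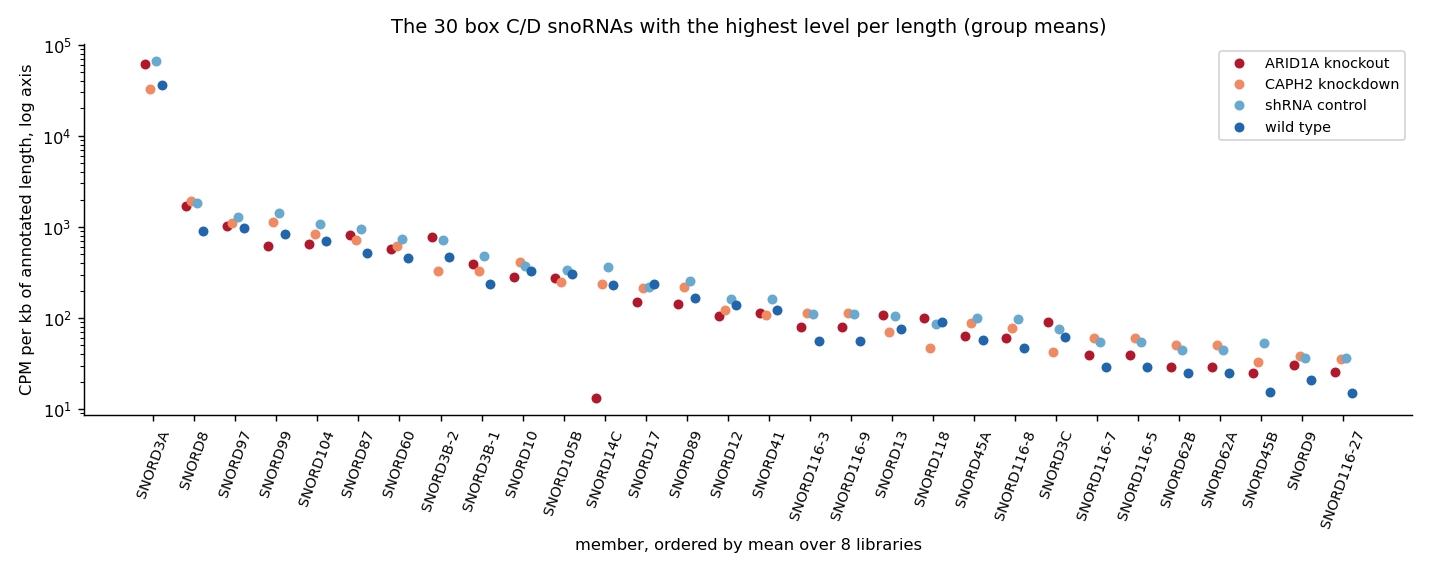
Mean CPM per kb of annotated length (log axis) of the 30 members with the highest level, ordered by their mean over the 8 libraries, with 1 point for each group. SNORD3A stands at 32903 to 66514 CPM per kb in the 4 groups, far above SNORD8, the next member by that mean.

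Some members cannot be told apart by reads. SNORD116-3 and SNORD116-9 had identical counts in every library and the same annotated sequence. The same was true of SNORD116-5 and SNORD116-7, of SNORD116-17 and SNORD116-19, and of SNORD62A and SNORD62B. SNORD3B-1 and SNORD3B-2 also share 1 sequence, yet their estimated counts were split unevenly. SNORD3B-1 stood at 133.6 and 37.1 CPM in knockout libraries, where SNORD3B-2 stood at 132.4 and 201.0 CPM. Single values of copies of U3, U14, SNORD116 and SNORD62 are therefore uncertain, and each of these families was also fitted as 1 summed row, an alternative chosen after seeing the data.

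U3 is the RNA around which the small-subunit processome assembles, the particle that makes the early cuts on the path to 18S rRNA. SNORD3A stood at 13988 and 12480 CPM in knockout libraries, 8193 and 6087 CPM in knockdown libraries, 14409 and 14458 CPM in shRNA control libraries, and 7828 and 7802 CPM in wild-type libraries. Knockout libraries were all above wild-type libraries, knockdown libraries were all below shRNA control libraries, and no libraries of the groups compared overlapped. SNORD3A rose in knockout over wild-type cells (log2 fold change 0.76, SE 0.10, edgeR quasi-likelihood test with Benjamini-Hochberg adjusted p = 0.000148). It fell in knockdown against shRNA control cells (−1.02, SE 0.10, edgeR adjusted p = 4.66e-05). It was also higher in shRNA control than in wild-type cells (0.89, SE 0.10, edgeR adjusted p = 0.000183), a difference about as large as that of the knockout, and the 2 comparisons share the wild-type libraries. The knockout effect minus the knockdown effect was 1.78 (SE 0.15, edgeR adjusted p = 4.28e-06). In bulk RNA, fewer cells that hold a transcript and less of it per cell cannot be told apart.

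The U3 copies gave less certain values. SNORD3B-2 stood at 83.1 and 57.9 CPM in knockdown libraries and 129.0 and 186.4 CPM in shRNA control libraries, with no overlap, and fell (−1.16, SE 0.26, edgeR adjusted p = 0.0111). That call was lost without knockdown library 2 (−0.92, edgeR adjusted p = 0.112) or shRNA control library 2 (−0.87, edgeR adjusted p = 0.108). In knockout against wild-type cells SNORD3B-2 had a log2 fold change of 0.71 (edgeR adjusted p = 0.0557), SNORD3B-1 of 0.73 (0.377) and SNORD3C of 0.54 (0.271). Over the alternatives SNORD3B-2 ranged over 0.37 to 1.12 and was called in 5 of 15, among them without knockout library 1 (0.98) or wild-type library 1 (1.12). SNORD3C ranged over 0.11 to 0.87 and was called in 1 of 15, and SNORD3B-1 changed sign (−0.47 to 2.06). With the 4 rows summed, U3 averaged 13506 ± 1093 CPM in knockout, 7291 ± 1518 CPM in knockdown, 14711 ± 37.1 CPM in shRNA control and 7982 ± 8.27 CPM in wild-type cells (SD, n = 2 each). The fold changes of the sum, 0.76 for the knockout, −1.01 for the knockdown and 0.88 for shRNA control over wild type each passed the edgeR test (adjusted p = 0.000141, 4.4e-05 and 0.000173).

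U8, U13 and U14 are the other members with known parts in processing ribosomal RNA. SNORD118, or U8, needed for the maturation of 28S and 5.8S rRNA, stood at 4.73 and 7.9 CPM in knockdown libraries and 10.4 and 12.8 CPM in shRNA control libraries. The groups did not overlap, and SNORD118 fell in the knockdown (−0.88, SE 0.22, edgeR adjusted p = 0.0206). This call was lost without knockdown library 1 (−0.56, edgeR adjusted p = 0.151) or shRNA control library 2 (−0.72, edgeR adjusted p = 0.151). TMEM107 counts as its host by annotated position alone. SNORD118 overlaps an exon of TMEM107, so the counting could have split reads between them. TMEM107 stood at 12.8 and 17.3 CPM in knockdown libraries and 21.3 and 20.9 CPM in shRNA control libraries (−0.49, SE 0.15, edgeR adjusted p = 0.0446). The call of TMEM107 was lost without knockdown library 1 (−0.29), and also without either shRNA control or either knockout library. SNORD118 had 14.8 and 11.7 CPM in knockout libraries and 10.4 and 13.7 CPM in wild-type libraries, which overlapped (0.13, edgeR adjusted p = 0.678). SNORD13, or U13, which guides the acetylation of 18S rRNA, was not called in either comparison. It stood at 12.1 and 10.4 CPM in knockout libraries and 10.1 and 5.83 CPM in wild-type libraries (0.51, edgeR adjusted p = 0.073), and at 7.63 and 6.93 CPM in knockdown libraries against 11 and 10.9 CPM in shRNA control libraries (−0.58, edgeR adjusted p = 0.0728). Over the alternatives the knockout value of SNORD13 ranged over 0.16 to 0.94 and was called in 3 of 16, among them without wild-type library 1 (0.94). The knockdown value ranged over −0.66 to −0.52 and was called in 6 of 16, among them DESeq2 (adjusted p = 0.0497). The knockout effect minus the knockdown effect of SNORD13 was 1.09 (SE 0.28, edgeR adjusted p = 0.0143). This call did not hold without knockout library 1 (0.98) or knockdown library 2 (1.02).

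The main U14 row was far lower in the knockout libraries. SNORD14C, a copy of U14, which guides methylation of 18S rRNA and in yeast is needed to make it, stood at 2.3 and 0.0 CPM in knockout libraries (84 and 0 counts). It stood at 19.8 and 21.5 CPM in knockdown libraries, 34.1 and 29.2 CPM in shRNA control libraries, and 25.7 and 14.7 CPM in wild-type libraries (623 and 405 counts). Both knockout libraries were below all 6 others. SNORD14C fell in the knockout (−4.15, SE 0.58, edgeR adjusted p = 0.000193), and the call was lost with DESeq2 (−4.13, adjusted p = 0.0735). The fitted value depends on the knockout library with no count: it was −3.12 without knockout library 2 and −12.31 without knockout library 1. The other U14 member, SNORD14E, stood at 0.438 and 0.548 CPM in knockout libraries and 0.33 and 0.579 CPM in wild-type libraries, which overlapped (0.11, edgeR adjusted p = 0.903). Summed over 5 U14 rows, the level was 2.74 and 0.574 CPM in knockout libraries and 26.1 and 15.3 CPM in wild-type libraries (−3.65, SE 0.40, edgeR adjusted p = 2.68e-05). HSPA8, the heat shock cognate chaperone gene that hosts both copies, stood at 3477 and 3527 CPM in knockout libraries and 4018 and 3791 CPM in wild-type libraries (−0.16, SE 0.04, edgeR adjusted p = 0.0133; −0.15 and −0.17 without knockout library 1 or 2, where the call was lost). SNORD14C is annotated as overlapping an exon of some HSPA8 transcripts, so the counting could have split reads between them.

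**Figure D2:**
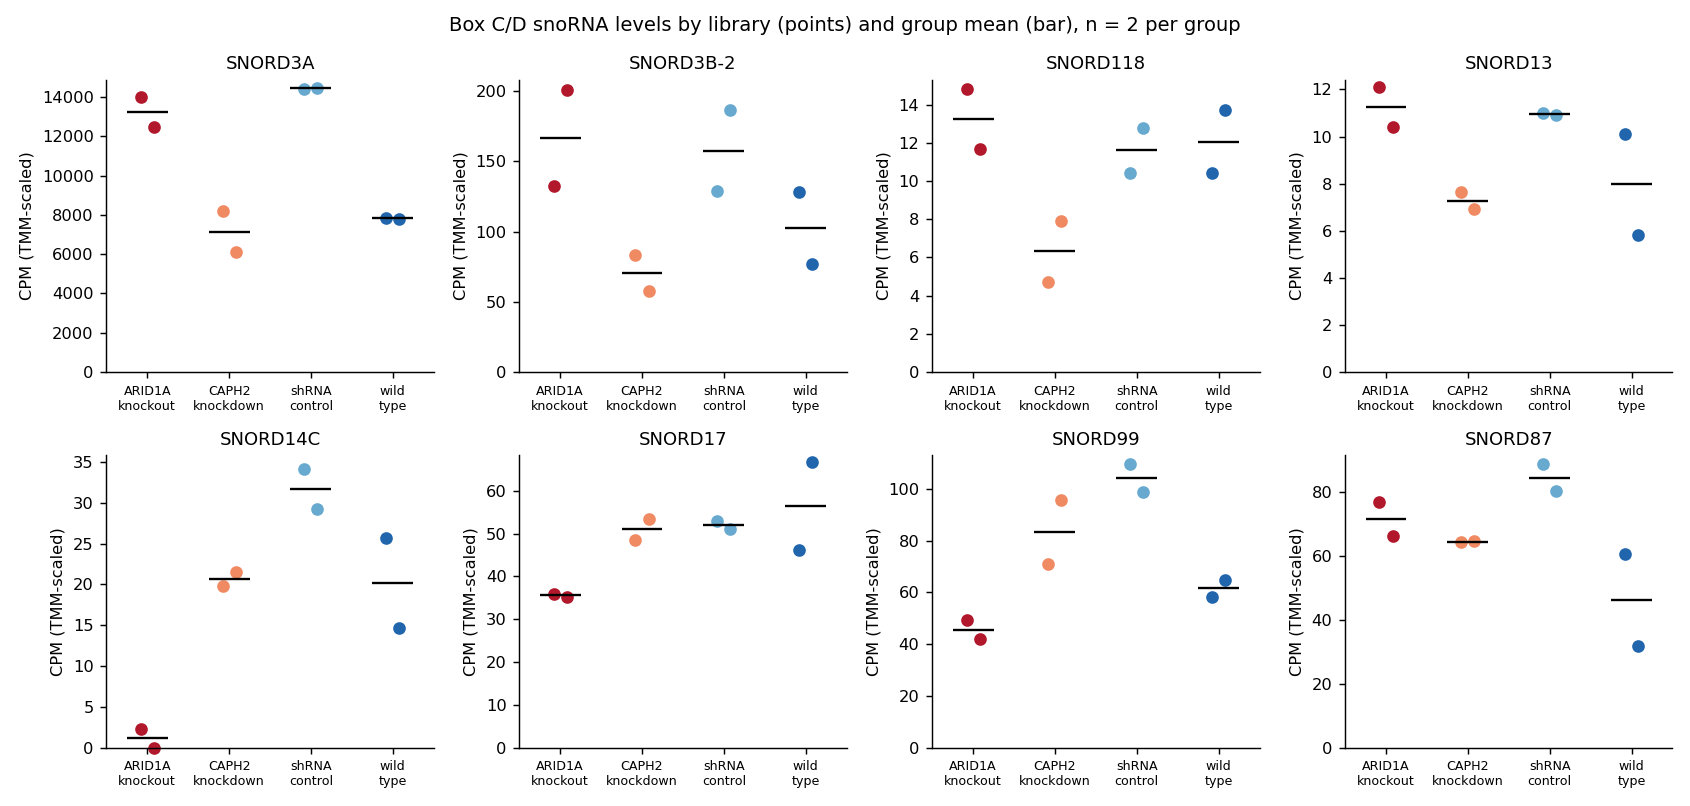
TMM-scaled CPM (linear axes from 0) of 8 members in each library (points), with the group mean as a line, n = 2 libraries per group. SNORD3A stands at 12480 to 14458 CPM in knockout and shRNA control libraries and at 6087 to 8193 CPM in knockdown and wild-type libraries, and SNORD14C is at 2.3 and 0.0 CPM in the knockout libraries.

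In knockout against wild-type cells, 8 of 78 tested members rose and 3 fell at an adjusted p under 0.05, while 16.8% of all 16657 genes tested rose and 17.8% fell. The members' shares of calls were thus below those of all genes in both directions. Many members are sparse and have wide errors, so a lower share of calls need not be particular to the class. The median log2 fold change of the tested members was 0.25, with 53 of 78 above 0, beside a median of 0.00 over all genes tested. Box H/ACA snoRNAs had a median of −0.00 over 76 tested genes, with 5 up and 6 down. The count of rises depended on single libraries: it was 3 without knockout library 1, 4 without wild-type library 2, 16 without wild-type library 1 and 5 without any 1 of the knockdown or shRNA control libraries. It was 4 with DESeq2. The median was 0.11 without knockout library 1, 0.34 without wild-type library 1 and 0.13 with copies of a family summed. Under these settings the share of all genes called is not given, so a swing in the counts need not be particular to the members.

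The rises, after SNORD3A, were led by 2 sparse SNORD116 copies and by guides hosted in longer genes. SNORD8 stood at 206.5 and 165.8 CPM in knockout libraries and 141.1 and 59.6 CPM in wild-type libraries (0.90, SE 0.27, edgeR adjusted p = 0.0236). The groups did not overlap, but wild-type library 2 was far below library 1. The value of SNORD8 was 0.73 without knockout library 1 (edgeR adjusted p = 0.141), 0.40 without wild-type library 2 and 1.64 without wild-type library 1, and its host CHD8, a chromatin remodeller gene, was not called (0.09, edgeR adjusted p = 0.297). SNORD87, a guide to 28S rRNA, stood at 77.0 and 66.4 CPM in knockout libraries and 60.8 and 32.0 CPM in wild-type libraries (0.63, SE 0.20, edgeR adjusted p = 0.0317). Its host SNHG6 rose too, at 141.2 and 131.0 CPM in knockout libraries and 102.9 and 97.5 CPM in wild-type libraries (0.44, SE 0.06, edgeR adjusted p = 0.000218). SNORD87 is annotated as overlapping an exon of SNHG6, so the counting could have split reads between them. The call of SNORD87 was lost without knockout library 1 (0.53), knockout library 2 (0.74) or wild-type library 2 (0.24), and its value was 1.16 without wild-type library 1. SNORD60 stood at 51.5 and 43.4 CPM in knockout libraries and 41.1 and 35.6 CPM in wild-type libraries (0.31, SE 0.10, edgeR adjusted p = 0.0282), which was no longer called without knockout library 1 (0.18) or wild-type library 2 (0.21).

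Besides SNORD14C, 2 guides to 28S rRNA fell in the knockout together with their hosts. SNORD17, the longest member at 237 bases, stood at 36.0 and 35.2 CPM in knockout libraries and 46.3 and 66.7 CPM in wild-type libraries. All knockout values were below those of the 6 other libraries, and SNORD17 fell (−0.67, SE 0.13, edgeR adjusted p = 0.00191) under every alternative run (−0.91 to −0.38, the last without wild-type library 2). Its host SNX5, a sorting nexin gene, stood at 208.8 and 219.9 CPM in knockout libraries and 271.4 and 283.4 CPM in wild-type libraries (−0.37, SE 0.05, edgeR adjusted p = 0.000238). SNORD99 stood at 49.2 and 42.0 CPM in knockout libraries and 58.2 and 64.8 CPM in wild-type libraries (−0.43, SE 0.13, edgeR adjusted p = 0.021), which was not called without knockout library 2 (−0.32) or wild-type library 2 (−0.35). Its host SNHG12, a noncoding snoRNA host gene, stood at 203.3 and 180.9 CPM in knockout libraries and 307.5 and 319.3 CPM in wild-type libraries (−0.71, SE 0.06, edgeR adjusted p = 4.06e-06).

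In knockdown against shRNA control cells no member rose and 4 fell, while 7.62% of all genes tested rose and 8.22% fell. Members were on the lower side, with a median log2 fold change of −0.33 and 20 of 78 above 0, beside 0.00 for all genes and −0.05 for box H/ACA snoRNAs, of which 0 rose and 1 fell among 76. None of the alternatives run gave a rise, DESeq2 included. At an unadjusted p under 0.05 (edgeR), 0 members were higher and 15 lower. The share of all genes at that limit is not given here. The falls were SNORD3A, SNORD3B-2, SNORD118 and SNORD105B. SNORD105B, a guide to 18S rRNA in an intron of PPAN, stood at 17.6 and 21.3 CPM in knockdown libraries and 26.6 and 26.2 CPM in shRNA control libraries. Those libraries did not overlap (−0.44, SE 0.11, edgeR adjusted p = 0.0156). The call was lost without knockdown library 1 (−0.32), shRNA control library 1 (−0.43) or shRNA control library 2 (−0.45), and PPAN, a gene of large-subunit assembly, was not called (−0.26, edgeR adjusted p = 0.11). The count of falls was 2 without knockdown library 1, 1 without shRNA control library 2, 11 without wild-type library 1, 12 without wild-type library 2 and 13 in a fit of the 4 compared libraries alone. The median was −0.16 without shRNA control library 1. The share of all genes called under these settings is not given, so a swing in the counts need not be particular to the members.

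The median of the class was farthest from 0 between the 2 groups that have both ARID1A and CAPH2 unaltered. In shRNA control against wild-type cells, 24 of 78 members rose and 0 fell, while 9.13% of all genes tested rose and 10.1% fell. The median log2 fold change was 0.83, with 68 of 78 above 0, beside 0.00 for all genes. These rows are not all separate, since 21 of them, with 10 of the rises, are SNORD116 copies, some with shared reads. The 57 other members had 14 rises, 0 falls and a median of 0.68, with 47 above 0. Box H/ACA snoRNAs had a median of 0.16, with 9 of 76 up and 0 down, and 82 spliceosomal and related snRNA genes a median of 0.07, with 6 up and 2 down. At an unadjusted p under 0.05 (edgeR), 39 members were higher and 0 lower, and DESeq2 called 0 lower. Neither the share of all genes at that limit nor their share called under the alternatives is given here. Leaving out shRNA control library 1 gave 11 rises, leaving out any of the other libraries gave 16 to 26, and leaving out wild-type library 1 gave 1 fall.

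Without the U3 rows, members summed to 849.3 and 715.8 CPM in knockout libraries, 924.9 and 969.4 CPM in knockdown libraries, 1115 and 1040 CPM in shRNA control libraries, and 761.9 and 661.3 CPM in wild-type libraries. Both groups with an shRNA were above both groups without one on this scale, with no overlap. Box H/ACA RNAs summed to 1232 and 1088 CPM in knockout libraries, 1379 and 1688 CPM in knockdown libraries, 1513 and 1514 CPM in shRNA control libraries, and 1419 and 1284 CPM in wild-type libraries. Whether the shRNA vector, selection, or handling of separate experiments went with these levels cannot be told apart from the groups.

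The largest rises of shRNA control over wild-type cells were in members with few counts. SNORD121B, in the host UBAP2, stood at 2.04 and 1.56 CPM in shRNA control libraries and 0.578 and 0.181 CPM in wild-type libraries (2.26, SE 0.47, edgeR adjusted p = 0.00621). UBAP2, an exon of which SNORD121B overlaps, rose as well (0.45, SE 0.08, edgeR adjusted p = 0.00244), and reads could have been split between them. SNORD45B, a guide in RABGGTB, stood at 4.36 and 3.29 CPM in shRNA control libraries and 1.16 and 1.05 CPM in wild-type libraries (1.79, SE 0.35, edgeR adjusted p = 0.00439), while RABGGTB fell (−0.39, SE 0.05, edgeR adjusted p = 0.000484). SNORD59A, a guide to 18S rRNA in ATP5F1B, stood at 1.7 and 1.2 CPM in shRNA control libraries and 0.454 and 0.362 CPM in wild-type libraries (1.82, SE 0.45, edgeR adjusted p = 0.0155), and ATP5F1B was not called (−0.10, edgeR adjusted p = 0.362). The call of SNORD59A was lost without shRNA control library 1 (1.55) or wild-type library 2 (1.66). None of these libraries overlapped between the groups.

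More abundant guides rose as well in shRNA control over wild-type cells. SNORD99 stood at 109.5 and 98.8 CPM in shRNA control libraries against 58.2 and 64.8 CPM in wild-type libraries (0.76, SE 0.12, edgeR adjusted p = 0.00158). SNORD60 stood at 65.0 and 58.7 CPM against 41.1 and 35.6 CPM in the same groups (0.69, SE 0.10, edgeR adjusted p = 0.000587). SNORD8 stood at 203.2 and 203.3 CPM in shRNA control libraries against 141.1 and 59.6 CPM in wild-type libraries (1.02, SE 0.27, edgeR adjusted p = 0.0217). SNORD104 stood at 84.6 and 68.2 CPM in shRNA control libraries and 56.6 and 42.1 CPM in wild-type libraries (0.63, SE 0.15, edgeR adjusted p = 0.0137), and SNORD97 at 182.4 and 178.8 CPM against 120.0 and 159.1 CPM (0.37, SE 0.10, edgeR adjusted p = 0.0296). The call of SNORD8 was lost without shRNA control library 1 or 2 (1.02 each), and its value was 1.77 without wild-type library 1 and 0.53 without wild-type library 2. That of SNORD104 was lost without shRNA control library 1 (0.47) or wild-type library 2 (0.43). The call of SNORD97 was lost without shRNA control library 1 (0.36), shRNA control library 2 (0.39) or wild-type library 1 (0.18), and its value was 0.59 without wild-type library 2. SNORD17 was not called, at −0.12 (edgeR adjusted p = 0.564).

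**Figure D3:**
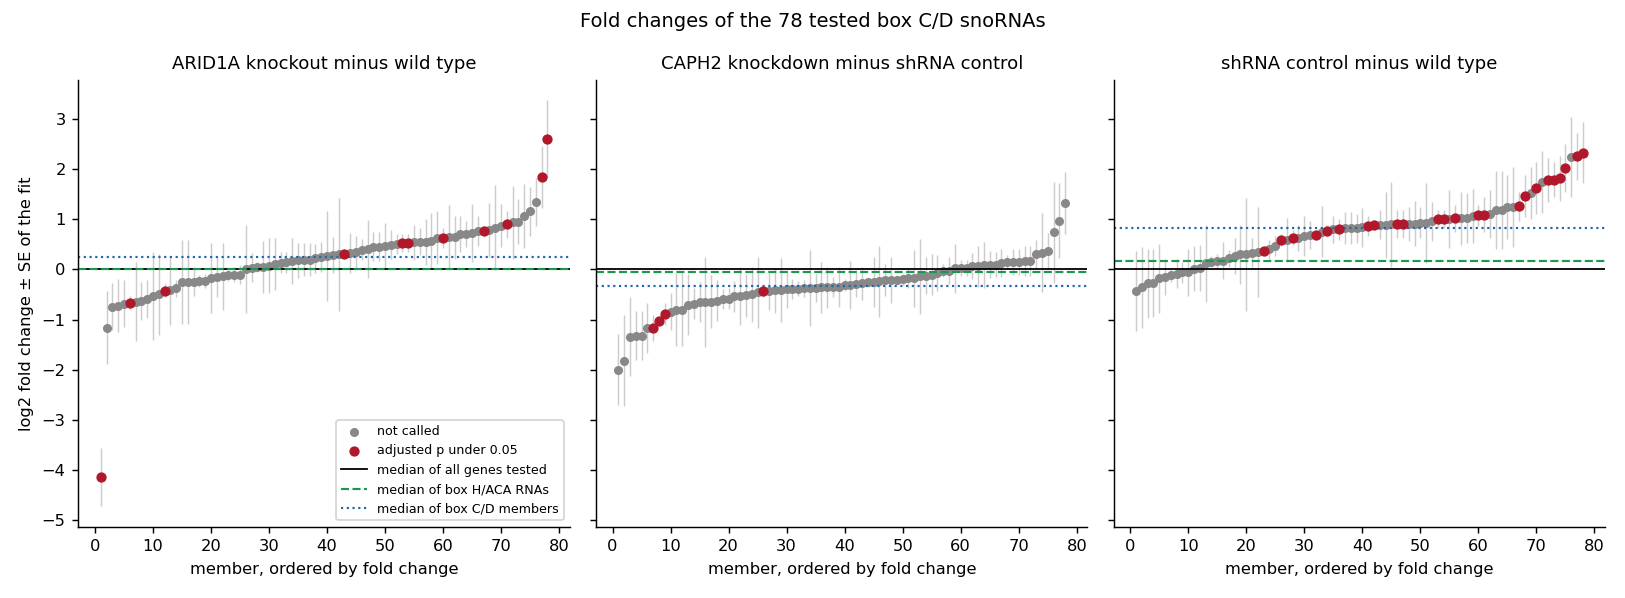
Log2 fold changes with the SE of the fit (vertical lines) for the 78 tested members, ordered by size within each of the 3 comparisons, with called members in red. The dotted line marks the members' median (0.25 in the knockout, −0.33 in the knockdown and 0.83 between shRNA control and wild type), beside a median of 0.00 for all genes tested (solid line), and SNORD14C is the lone point near −4.15 in the knockout.

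SNORD116 is a family of orphan snoRNAs with no agreed target, expressed from the paternal copy of the Prader-Willi region and processed from introns of SNHG14. The 22 member copies summed to 45.2 and 36 CPM in knockout libraries, 57.1 and 55.6 CPM in knockdown libraries, 60.9 and 58.5 CPM in shRNA control libraries, and 34.2 and 22 CPM in wild-type libraries. Knockout libraries were above wild-type libraries, if narrowly, and both groups with an shRNA were above those. SNORD116-3 and SNORD116-9, the most abundant copies, each stood at 8.71 and 6.45 CPM in knockout libraries, 10.8 and 10.7 CPM in knockdown libraries, 10.6 and 10.4 CPM in shRNA control libraries, and 6.11 and 4.42 CPM in wild-type libraries. Summed to 1 row over all 25 rows of the family, it had a log2 fold change of 0.54 for knockout over wild type (SE 0.16, edgeR adjusted p = 0.0218), −0.08 for knockdown over shRNA control (edgeR adjusted p = 0.773) and 1.10 for shRNA control over wild type (SE 0.16, edgeR adjusted p = 0.000732).

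By copy, 4 of 21 tested SNORD116 members rose in the knockout and 0 fell, 0 changed in the knockdown, and 10 rose in shRNA control over wild-type cells. Of all genes tested, 16.8% rose in the knockout, close to the share of these copies, and 17.8% fell. In the knockdown 7.62% rose and 8.22% fell, and in shRNA control over wild type 9.13% rose and 10.1% fell. With so few and sparse rows, the absence of calls says little. SNORD116-3 and SNORD116-9, with the same counts, are 2 of the 4 knockout rises, each at 0.53. Neither was called without knockout library 1 (0.30), wild-type library 2 (0.31), or any 1 of the knockdown and shRNA control libraries (0.53). The medians of the 21 copies were 0.57, −0.28 and 1.11, and every one of the 21 was above 0 in the last comparison. These rows are not 21 separate observations. They hold the pairs with identical counts, SNORD116-3 and SNORD116-9, SNORD116-5 and SNORD116-7, and SNORD116-17 and SNORD116-19. Reads of other like copies were divided by estimate. The 57 other tested members had 4 rises and 3 falls in the knockout (median 0.14), 4 falls in the knockdown (−0.37) and 14 rises in shRNA control over wild type (0.68). SNORD116-11 rose most in the knockout, with 14 and 23 counts in knockout libraries and 3 and 1 counts in wild-type libraries (2.60, SE 0.78, edgeR adjusted p = 0.0228), and was not called without knockout library 2 (2.24) or wild-type library 2 (1.96) and with DESeq2 (adjusted p = 0.0537). SNORD116-6 had 27 and 15 counts in knockout libraries and 4 and 4 counts in wild-type libraries (1.84, SE 0.62, edgeR adjusted p = 0.0405), a call lost on leaving out any single library other than knockout library 2 (1.32 to 1.93). In shRNA control over wild-type cells SNORD116-6 had 2.33 (SE 0.61, edgeR adjusted p = 0.0215), SNORD116-26 had 2.02 (SE 0.48, edgeR adjusted p = 0.0126) and SNORD116-29 had 1.79 (SE 0.44, edgeR adjusted p = 0.0148). The call of SNORD116-6 was lost on leaving out any of the 4 libraries compared (2.24 to 2.42), that of SNORD116-26 without shRNA control library 2 (1.62) or wild-type library 2 (1.38; 3.06 without wild-type library 1), and that of SNORD116-29 without shRNA control library 1 (1.58) or wild-type library 1 (1.61). SNHG14 itself stood at 32.3 and 29.4 CPM in knockout libraries, 28.2 and 28.9 CPM in knockdown libraries, 26.0 and 24.9 CPM in shRNA control libraries, and 27.8 and 27.1 CPM in wild-type libraries. It was not called for the knockout (0.17, edgeR adjusted p = 0.106), the knockdown (0.16, edgeR adjusted p = 0.178) or shRNA control over wild type (−0.11, edgeR adjusted p = 0.377).

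**Figure D4:**
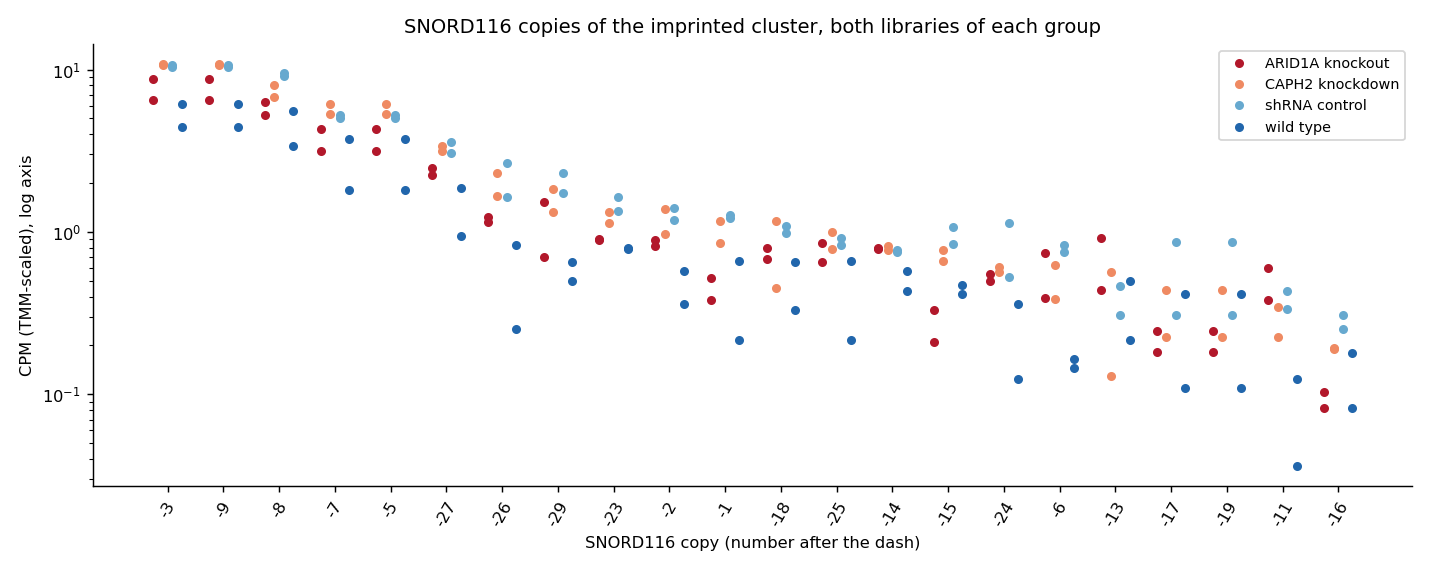
TMM-scaled CPM (log axis) of the 22 SNORD116 members in both libraries of each group, ordered by mean level. SNORD116-3 and SNORD116-9, with identical counts, are highest, at 4.42 to 10.8 CPM, and most wild-type points lie below the shRNA control points of the same copy.

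Host genes were compared with the snoRNAs they carry over 39 hosts with a tested member. For the knockout, the median fold change of a host's snoRNAs and the fold change of the host had Pearson's r 0.46 and Spearman's rho 0.51 across hosts. For the knockdown these were 0.13 and 0.1, and for shRNA control over wild type 0.03 and 0.14. Points share libraries and scaling, and hosts are not replicates, so these are descriptions. In shRNA control over wild type the median of the snoRNAs by host was 0.63 and that of the hosts −0.06. Of 40 hosts, 6 rose and 11 fell in the knockout, 0 rose and 8 fell in the knockdown, and 6 rose and 8 fell in shRNA control over wild type. Of all genes tested, 16.8% rose and 17.8% fell in the knockout, 7.62% and 8.22% in the knockdown, and 9.13% and 10.1% in shRNA control over wild type. The 50 tested members in introns had medians of 0.25, −0.32 and 0.86 in the 3 comparisons, and the 23 that overlap a host exon had 0.13, −0.22 and 0.80.

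**Figure D5:**
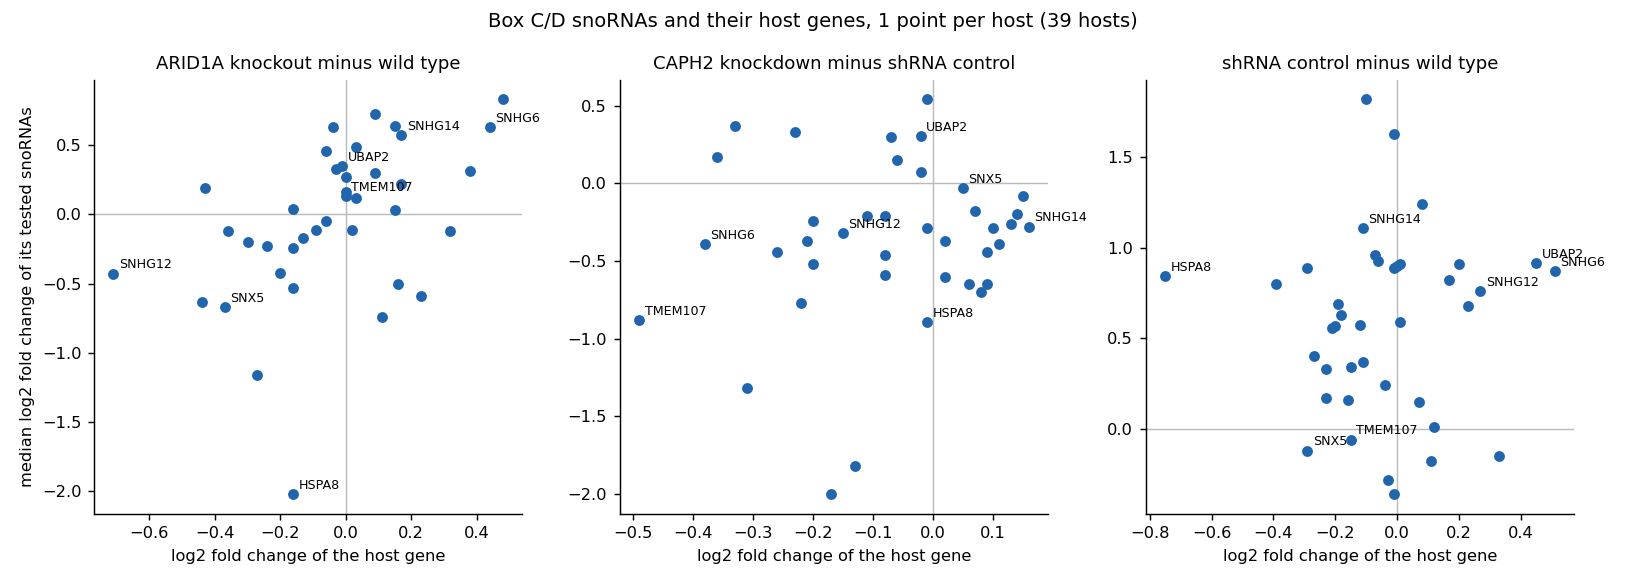
Median log2 fold change of the tested snoRNAs of a host (vertical) against the log2 fold change of the host gene (horizontal), 1 point for each of 39 hosts, in the 3 comparisons. HSPA8 lies at −0.16 in the knockout, with a low median of its U14 copies that comes from SNORD14C (−4.15) and not SNORD14E (0.11). In shRNA control over wild type most points lie above 0 on the vertical axis while the hosts scatter around −0.06.

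The proteins that make, cap and use these RNAs were read from lists of textbook members. Their counts stand beside 16.8% of all genes tested that rose and 17.8% that fell in the knockout, 7.62% and 8.22% in the knockdown, and 9.13% and 10.1% in shRNA control over wild type. TGS1, the enzyme that hypermethylates the cap of U3 and other small RNAs, stood at 242.7 and 257.8 CPM in knockout libraries, 111.3 and 110.6 CPM in knockdown libraries, 110.7 and 112.4 CPM in shRNA control libraries, and 109.4 and 102.0 CPM in wild-type libraries. It rose in the knockout (1.24, SE 0.06, edgeR adjusted p = 2.87e-08) and was not called in the knockdown (−0.01, edgeR adjusted p = 0.952). Of 22 genes for capping, trafficking and end maturation, 5 rose and 1 fell in the knockout, 2 rose and 3 fell in the knockdown, and 1 rose and 8 fell in shRNA control over wild type. EXOSC9, an exosome subunit, rose (0.38, SE 0.07) and DIS3, an exosome nuclease, fell (−0.33, SE 0.05) in the knockout.

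Assembly factors changed in both directions in the knockout. ZNHIT6, which helps to assemble box C/D particles, stood at 96.6 and 96.5 CPM in knockout libraries, 35.0 and 35.2 CPM in knockdown libraries, 46.3 and 44.5 CPM in shRNA control libraries, and 54.8 and 44.3 CPM in wild-type libraries. It rose in the knockout (0.96, SE 0.08, edgeR adjusted p = 4.43e-06) and fell in the knockdown (−0.37, SE 0.09, edgeR adjusted p = 0.0129), the second call being lost on leaving out any 1 of the 4 libraries compared (−0.40 to −0.34). RPAP3, of the R2TP chaperone complex, rose in the knockout (0.74, SE 0.08, edgeR adjusted p = 1.82e-05), and the chaperone gene HSP90AA1 fell (−0.21, SE 0.05, edgeR adjusted p = 0.00628; −0.17 without knockout library 2, where the call was lost). Of 9 assembly factors tested, 4 rose and 1 fell in the knockout, 0 rose and 3 fell in the knockdown, and 0 rose and 3 fell in shRNA control over wild type, beside 16.8% up and 17.8% down, 7.62% and 8.22%, and 9.13% and 10.1% of all genes tested.

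Of the 4 core proteins, NOP56 fell in the knockout (−0.35, SE 0.06, edgeR adjusted p = 0.000585) and in shRNA control over wild type (−0.48, SE 0.06, edgeR adjusted p = 0.00021), and rose in the knockdown (0.19, SE 0.06, edgeR adjusted p = 0.0473). The knockdown call was lost in 9 of 16 alternatives, among them leaving out any 1 of the 4 libraries compared. FBL, the methyltransferase, stood at 125.6 and 148.4 CPM in knockout libraries and 152.8 and 123.6 CPM in wild-type libraries, which overlapped. Among 24 proteins of the U3 processome, 8 rose and 3 fell in the knockout, 0 rose and 2 fell in the knockdown, and 1 rose and 9 fell in shRNA control over wild type, beside the same shares of all genes tested (16.8% up and 17.8% down in the knockout). WDR3 rose in the knockout (0.49, SE 0.06) and was lower in shRNA control than in wild-type cells (−0.58, SE 0.06), UTP20 fell in the knockdown (−0.48, SE 0.06), and RRP9, the U3-binding protein, fell in the knockout (−0.34, SE 0.10). The call of RRP9 was lost without knockout library 1 (−0.28) or wild-type library 2 (−0.30).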

How the data were processed

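RNA-seq of 8 RMG1 libraries was analysed, 2 in each of 4 groups taken from the sample labels. Expected counts by Ensembl gene ID were deposited by the authors in 1 table. Per the submitters' processing notes, RSEM 1.2.12, Bowtie2 and hg19 were used. Neither the release of the annotation nor the setting for strand is given in the sources used here. RSEM divides reads among genes that share sequence. The deposited values were whole numbers, so rounding changed none. Per the labels' protocols, total RNA was treated with DNase and cleaned on silica columns before library preparation. Symbols were matched by Ensembl ID for 52301 of 57736 IDs. GENCODE 29 on GRCh38 gave biotype, length, host and sequence; since the builds differ, no coordinates are given.

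Tests used edgeR 4.0.16 under R 4.3.3, with filterByExpr, TMM scaling, and a quasi-likelihood F-test on group means of all 8 libraries (16657 genes, 4 residual degrees of freedom, biological coefficient of variation 7.74%), with Benjamini-Hochberg adjustment over all genes and a threshold of 0.05. The procedure was also run on simulated counts with the same biological variation for every gene. That run does not cover members that vary more than this between libraries. Levels are CPM with SD over 2 libraries. Replicate libraries correlated at 0.981 to 0.987. Chi-square per degree of freedom between the libraries of a pair was 5.35 for the knockout, 14.4 for the knockdown, 4.31 for shRNA control and 19.9 for wild type, so the wild-type and knockdown pairs stood farther apart. With counts as low as 40 over 8 libraries, sparse members have wide errors. Named members were the 6 largest called rises and falls per comparison without overlap between libraries, and the 8 highest per kb. Members with known processing roles and those next to the limit of 40 were named as well. Of each list, the 2 strongest called genes and 1 in the other direction were picked per comparison. Only some of these list genes are described. DESeq2 1.42.0, other scalings and filters, a replicate block and leaving out each library were alternatives. The members and lists were chosen with earlier results of these data known. A marker gene is not reported here by name.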

Additional observations from a re-analysis of the deposited data

Results flagged for a closer look

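For 10 members the effect of the knockout (ARID1A knockout minus wild type) and that of the knockdown (CAPH2 knockdown minus shRNA control) differed in a test of the difference itself (edgeR, p adjusted over all genes under 0.05, 2 libraries per group). Over all genes tested, this difference was called above 0 for 12.3% and below 0 for 14%, and 8 of 78 members were above and 2 below. The median difference of the tested members was 0.50, with 61 of 78 above 0. It equals knockout minus knockdown plus shRNA control minus wild type, and the last part had a member median of 0.83. A difference above 0 thus need not mean opposite effects of the 2 perturbations. SNORD60 averaged 47.4 CPM in knockout, 51.8 CPM in knockdown, 61.9 CPM in shRNA control and 38.3 CPM in wild-type cells. The difference, in log2 units, was 1.78 for SNORD3A and 1.87 for its copy SNORD3B-2, 1.01 for SNORD118 (U8) and 1.09 for SNORD13 (U13). Among guides it was 0.56 for SNORD60, 1.03 for SNORD87 and −0.64 for SNORD17. It was −3.53 for SNORD14C (U14), 2.48 for SNORD116-6 and 3.02 for SNORD116-11. The values for SNORD3A, SNORD3B-2 and SNORD60 passed under every alternative run, and that for SNORD14C under all but DESeq2 (−3.52, adjusted p = 0.386), while its value ranged over −11.69 (without knockout library 1) to −2.51 (without knockout library 2). SNORD116-6 and SNORD116-11 rest on few counts and lost the call in 8 and 10 of their 13 alternatives. The call of SNORD118 was lost without knockout library 1 (0.84), knockdown library 1 (0.69), shRNA control library 2 (0.85) or wild-type library 1 (0.83). SNORD87 lost it without knockout library 1 (0.92), either knockdown library (1.03 each) or shRNA control library 1 (0.95), and with DESeq2 (1.02), and its value ranged over 0.63 (without wild-type library 2) to 1.55 (without wild-type library 1). SNORD17 lost it without either knockout library (−0.66 and −0.62), knockdown library 2 (−0.57) or either shRNA control library (−0.66 and −0.62), and its value ranged over −0.88 (without wild-type library 1) to −0.35 (without wild-type library 2).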

How the results depend on the processing

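No called member changed sign under any alternative run. Called under every alternative were 2 of 11 members in the knockout (SNORD3A and SNORD17), 1 of 4 in the knockdown (SNORD3A), 9 of 24 in shRNA control over wild type and 3 of 10 for the difference of effects. Other scalings kept the counts of calls within 1.5 times. The share of all genes called was read for the main fit only. Counts of members under the alternatives therefore cannot be set beside it. With no filter on low counts there were 15 rises and 5 falls in the knockout, 15 falls in the knockdown and 15 differences above 0. With only the 4 libraries compared there were 3 rises in the knockout and 13 falls in the knockdown. DESeq2 gave 4 rises in the knockout, 7 falls in the knockdown, and 5 differences above and 1 below 0. With copies of a family summed, 15 rises remained in number for shRNA control over wild type and 5 differences above 0. Leaving out 1 library at a time, where the lone library of that group is assumed to vary like those of the other groups, gave 3 to 16 rises and 2 to 5 falls in the knockout, 1 to 12 falls and a median of −0.41 to −0.16 in the knockdown, 11 to 26 rises and 0 to 1 falls in shRNA control over wild type, and 3 to 15 differences above and 1 to 3 below 0. Values of uncalled genes that changed sign on leaving out a library were those of SNORD118 in the knockout (−0.04 without knockout library 1, −0.05 without wild-type library 1) and in shRNA control over wild type (0.08 without shRNA control library 1, 0.16 without wild-type library 2). The others were SNORD14E (−0.06 without knockout library 2, −0.23 without wild-type library 1) and SNORD3B-1 (−0.47 without knockout library 1) in the knockout. In shRNA control over wild type they were ATP5F1B (0.01) and ARID1A (0.15), both without wild-type library 2. Their values without another library reached 0.35 (SNORD118), 0.57 (SNORD14E) and 2.06 (SNORD3B-1, called) in the knockout, all without wild-type library 2. Without wild-type library 1, those in shRNA control over wild type were −0.25 (SNORD118), −0.22 (ATP5F1B, called) and −0.31 (ARID1A). The cause was not tested. Deviations of same-numbered libraries of different groups correlated at −0.0239 to 0.0296 over all genes tested. Such values show no shift common to most genes, but cannot tell whether same-numbered libraries share a culture or preparation. With a replicate block there were 9 rises and 3 falls in the knockout, 6 falls in the knockdown, 25 rises in shRNA control over wild type, and 9 differences above and 2 below 0.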
